A study of Homo sapiens with 30 samples.

Results

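Short interior exon bins are the smallest countable pieces of human genes in this study. An exon bin is what remains when all annotated exons of a gene are laid over each other and cut at every exon edge, so that a bin is either a whole exon or the stretch between 2 alternative edges. The bins described here belonged to genes with at least 3 bins, were neither the lowest-coordinate nor the highest-coordinate bin of their gene, and were at most 30 bp long. The rule used annotation only, and it found 123877 of 652720 bins (19.0%) in 18152 of the 29191 genes with enough bins. They made up 22.3% of all interior bins, the other 432031 being longer than 30 bp.

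The series measured RNA after inhibition of DNA methylation and after loss of nuclear speckle proteins. Of its poly(A) libraries 18 were counted per exon bin, in 6 groups of 3 separate cultures each. Wild-type K562 cells, a chronic myeloid leukemia line, and wild-type HCT116 cells, a colorectal carcinoma line, received 10 µM DNMT1i, an inhibitor of the maintenance DNA methyltransferase DNMT1, or 0.1% DMSO for 3 days. K562 cells carrying dTAG degron knock-ins on the speckle proteins SON and SRRM2 received 500 nM dTAG-13, the ligand that sends tagged protein to the proteasome, or 0.1% DMSO for 6 hr. The knock-in line was raised from single-cell clones, the SRRM2 tag was added to the SON-tagged clone and removed the last 4 residues of SRRM2, and both dTAG groups carried both tags. Since the degron acts on protein, the mRNA levels of SON and SRRM2 do not check the dTAG labels.

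Very short exons, called microexons where they are spliced as complete exons, are known for adding a few amino acids to proteins without changing the reading frame when their length is a multiple of 3. They are hard for the spliceosome to define, because the factors at the acceptor (the 3′ splice site, usually AG) and at the donor (the 5′ splice site, usually GT) have little room, and they are controlled in neurons by SRRM4 and in other tissues by RBFOX, PTBP, QKI and ESRP proteins. Most short bins are not microexons, however. They also arise between closely spaced start sites, between closely spaced poly(A) sites, and at tandem acceptors or donors, where a splice site is shifted by a few bases.

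The bins that the results turn on are shown here from hg38, 5′ to 3′ on the strand of the gene. Capitals mark the bin and lower-case letters the 10 bases on either side, so that the acceptor AG and the donor GT can be read directly. The first group holds the isolated coding microexons that differed with DNMT1i in HCT116 cells, in USO1 (chr4:75795336-75795356, plus strand), PTPRF (chr1:43602071-43602097, plus), PALLD (chr4:168691269-168691292, plus) and AFDN (chr6:167913403-167913423, plus).
USO1: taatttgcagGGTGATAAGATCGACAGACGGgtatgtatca
PTPRF: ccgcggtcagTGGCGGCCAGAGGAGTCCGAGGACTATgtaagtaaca
PALLD: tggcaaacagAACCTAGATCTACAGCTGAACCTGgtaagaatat
AFDN: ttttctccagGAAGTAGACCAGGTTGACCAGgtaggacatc

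The second group holds spliced short exons whose share differed between the untreated lines, in PICALM (chr11:85978070-85978093, minus strand), CD47 (chr3:108050578-108050602, minus), PSAP (chr10:71823888-71823896, minus), ANXA6 (chr5:151110627-151110644, minus), DIAPH1 (chr5:141588224-141588250, minus) and ABI1 (chr10:26771075-26771089, minus).
PICALM: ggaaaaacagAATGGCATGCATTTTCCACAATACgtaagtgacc
CD47: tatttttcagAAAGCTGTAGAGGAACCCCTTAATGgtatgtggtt
PSAP: tgttcaacagCAGGATCAGgtatgtgtcg
ANXA6: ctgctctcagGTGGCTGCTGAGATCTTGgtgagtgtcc
DIAPH1: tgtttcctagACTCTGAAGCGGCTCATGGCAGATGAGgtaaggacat
ABI1: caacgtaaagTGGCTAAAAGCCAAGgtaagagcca

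The third group shows the other forms a short bin takes. The CDCA3 bin (chr12:6849414-6849429, minus) lies between 2 acceptors, the WT1 bin (chr11:32391972-32391980, minus) is the stretch between 2 donors known as KTS, the EIF4G1 bin (chr3:184317747-184317749, plus) is a 3-base step between tandem acceptors, the AP2M1 bin (chr3:184180645-184180650, plus) is a complete exon of 6 bp, and the FADS2 bin (chr11:61816404-61816426, plus) runs from a start site to a donor.
CDCA3: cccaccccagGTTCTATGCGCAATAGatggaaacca
WT1: actcatacagGTAAAACAAgtgcgtaaac
EIF4G1: cccgacacagCAGtaccctgtgc
AP2M1: cggcctccagCATCAGgtaagctctt
FADS2: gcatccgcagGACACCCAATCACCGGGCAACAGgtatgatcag

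The last group comes from 3′ untranslated regions, where only the bin itself is printed, all in lower case. These bins lie between annotated transcript ends in AKT1 (chr14:104769352-104769370, minus), PABPC4 (chr1:39560837-39560844, minus) and TARS1 (chr5:33468063-33468085, plus), and all 3 hold the letters aataa, part of the poly(A) signal AATAAA that precedes a cleavage site.
AKT1: tcaataaaagttgcttttc
PABPC4: cccaataa
TARS1: aaaaataaaaaaaaaatttattc

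The short bins were sorted by what forms their edges in GENCODE 44, in which both edges of 115282 (93.1%) were found. Stretches between transcript starts were the most frequent kind (39536, or 31.9%). They were rich in G and C (median 62.5%) and 69.3% of them lay in untranslated regions. Stretches between transcript ends followed (23185, or 18.7%), with a median of 37.5% G and C. In a window of 40 bases closing at the last base of the bin, 37.0% of them held AATAAA and 3.75% its reverse complement, against 5.65% and 1.99% of all interior bins.

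Splicing formed the edges of a smaller set. Stretches between acceptors numbered 7798 (6.29%), and 49.6% of them were a multiple of 3 long. Of these, 1883 (24.1% of the kind) were exactly 3 bp long, and 99.2% of those 3 bp bins ended in AG, with AG before them in 99.0%, the tandem arrangement seen in the EIF4G1 line above. Stretches between donors numbered 4869 (3.93%). Their most frequent length was 4 bp (869 bins), of which 71.7% began with GT and 96.5% had GT after them. Bins that ran from an acceptor to a donor, as a microexon does, numbered 3313 (2.67%). Of these, 53.9% were a multiple of 3 long, 77.3% were coding and 94.7% were complete exons, while 38.9% of the longer bins of the same kind were a multiple of 3.

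**Figure D1:**
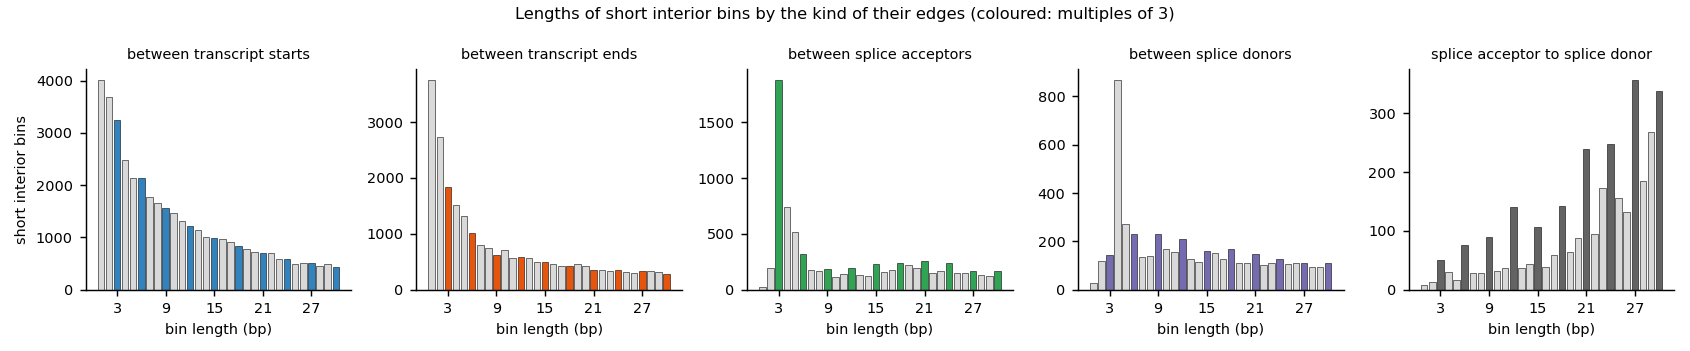
Number of short interior bins (vertical axis) by length from 1 to 30 bp (horizontal axis), in 1 panel for each of 5 kinds of edges, with multiples of 3 in colour. The panel of stretches between acceptors peaks at 3 bp with 1883 bins and that of stretches between donors at 4 bp with 869.

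By position, 81195 short bins (65.5%) touched another bin on both sides, 39117 (31.6%) on 1 side and 3565 (2.88%) on neither. The last are called isolated. They came from 2631 genes, had a median length of 23 bp, were a multiple of 3 long in 48.6% of cases and were complete exons in 71.8%. A read was counted in every bin that it overlapped, so bins that touch share most of their reads and cannot be read as separate measurements. Isolated bins have no touching bin, so a read shared with another bin must span the gap between them, as across a splice junction. Since 71.8% of them were complete exons, not every such gap need be an intron.

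Measured against the mean count of their 2 neighbouring bins, over all 18 libraries, short bins had a median ratio of 0.554 (40451 bins) and longer interior bins 0.950 (141581 bins). Stretches between starts came closest to their neighbours, at 0.853. Stretches between ends reached 0.468, between acceptors 0.326 and between donors 0.167. Isolated short bins had a median of 0.0141, and 63.5% of the 747 measured ones stayed below 0.1 of their neighbours. Shorter bins are overlapped by fewer reads at equal RNA level, so these ratios mix length with use.

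A few isolated bins were used at high level in every library. The share of a gene's bin counts in its bin, in percent, is used throughout as the measure of use. That share was 2.97 to 4.79% over the 18 libraries for a 25 bp exon of TOP1, the DNA topoisomerase, and 3.31 to 4.59% for a 25 bp exon of PTGES3, a co-chaperone. A 12 bp bin of the non-coding RNA ZFAS1 held 10.2 to 17.5%. The TOP1 and PTGES3 exons and the ZFAS1 bin were present in both lines and under all treatments. The ZFAS1 bin has an edge that GENCODE 44 does not hold and is followed by AG, so it is not shown to be a complete exon.

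Each library held 31947596 to 43773260 bin counts, and 49.6 to 58.7% of the short bins had at least 1 count. No replicates were duplicates of each other, since the chi-square per degree of freedom between replicates of a group was 2.11 or more. K562 DMSO replicate 3 stood apart from its replicates at 29.7 to 31.4, against 14.5 or less within every other group. Calls that rest on it are given with and without it. Summed over 7 marker genes of each line, K562 markers reached 474 to 627 CPM (gene counts scaled to an equal library total) in K562 and 2.78 to 4.32 in HCT116 libraries. HCT116 markers reached 3638 to 4491 in HCT116 and 432 to 1086 in K562 libraries. Of these 7, 5 could be tested between the lines under DMSO, and all 5 were called higher in HCT116 cells. CDX1 and VIL1 did not tell the lines apart under DMSO. Their means were 0 and 0.146 CPM in HCT116 and 0.0201 and 0.115 CPM in wild-type K562 cells.

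Short bins received 12.5 to 14.4% of all bin counts. In HCT116 cells the share was 12.5, 13.3 and 12.7% with DNMT1i and 14.0, 14.0 and 14.2% with DMSO. The 3 treated libraries all lay below the 3 controls, with means of 12.8% ± 0.437 and 14.0% ± 0.116 (SD, n = 3). The exact permutation test gave a two-sided p = 0.1, the smallest that 3 against 3 libraries can reach, and the same limit holds for every such test below. In wild-type K562 cells the groups overlapped, at 13.7% ± 0.342 with DNMT1i and 13.3% ± 0.346 with DMSO (n = 3, exact permutation p = 0.2). They also overlapped in dTAG K562 cells, at 13.8% ± 0.532 with dTAG-13 and 13.7% ± 0.601 with DMSO (n = 3, exact permutation p = 1).

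Single kinds of short bins were read in the same way, and no test compared the kinds with each other. Stretches between ends overlapped in all 3 treatment comparisons. They took 2.14% ± 0.146 with DNMT1i and 2.08% ± 0.166 with DMSO in HCT116 cells (n = 3, exact permutation p = 0.7). In wild-type K562 cells they took 2.14% ± 0.112 and 2.09% ± 0.144 (n = 3, exact permutation p = 0.7). In dTAG cells they took 2.22% ± 0.101 with dTAG-13 and 2.42% ± 0.111 with DMSO (n = 3, exact permutation p = 0.2). Stretches between starts took 4.44% ± 0.262 of bin counts with DNMT1i and 4.08% ± 0.111 with DMSO in K562 cells, with no overlap (n = 3, exact permutation p = 0.1). In HCT116 cells they took 3.96% ± 0.285 and 4.52% ± 0.269, and those groups overlapped (n = 3, exact permutation p = 0.2). Isolated short bins took 0.0765% ± 0.000899 with dTAG-13 and 0.0740% ± 0.000919 with DMSO, without overlap (n = 3, exact permutation p = 0.1). They took 0.0771% ± 0.00207 in HCT116 and 0.0694% ± 0.00289 in K562 cells under DMSO, again without overlap (n = 3, exact permutation p = 0.1). Between DNMT1i and DMSO the shares of isolated short bins overlapped in both lines.

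Coverage of the last bases of transcripts also varied between libraries. The 7989 short bins at the very 3′ end of their genes, which are not members, took between 0.0478 and 0.122% of bin counts. Both DMSO replicates 3 were lowest in their lines, at 0.0567% in K562 and 0.0478% in HCT116, where the other DMSO libraries had 0.0828 to 0.0840% and 0.0726 to 0.0784%. Stretches between ends followed, at 1.92% and 1.91% of bin counts in those 2 libraries against 2.09 to 2.25% in the other DMSO libraries of the wild-type lines. How far coverage of the last bases of transcripts enters the results on such stretches was not tested.

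DNMT1i in HCT116 cells changed the use of 308 short bins, 244 higher and 64 lower, of 37324 tested. The number depends on single libraries, at 84 without DNMT1i replicate 1 and 575 without DNMT1i replicate 2. Use was tested in edgeR as the log2 ratio of a bin's change to that of the other bins of its gene, and a bin was called where the Benjamini-Hochberg adjusted p over all bins was below 0.05. The calls were 0.825% of the short bins, close to the 0.86% called among all 201926 bins and to 0.885% of bins of 31 to 33 bp. Higher calls were 0.654% of short bins against a background of 0.605%, and lower calls 0.171% against 0.255%. By kind and place in the gene the calls were unevenly spread.

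Of 356 isolated short bins tested, 4 were lower and none was higher, all 4 of them complete coding exons. By unadjusted p below 0.05, 33 of the 356 passed, and the DESeq2 likelihood-ratio test called the same 4. In the gene USO1, which encodes a vesicle tethering factor of the Golgi, the 21 bp exon held 0.187, 0.226 and 0.213% of the gene's bin counts with DNMT1i and 0.627, 0.670 and 0.699% with DMSO. The 3 treated libraries lay far below the controls, at 25, 33 and 31 counts against 61, 70 and 63. Use fell by 1.68 on the log2 scale (SE 0.23, adjusted p = 4.53e-08 in edgeR). Taken as a percentage of the neighbouring bins, the exon stood at 5.08, 6.38 and 6.02 against 18.7, 18.6 and 17.5. It was the one isolated bin called in the test against its neighbours.

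The 24 bp exon of PALLD, an actin-associated scaffold, held 0.314, 0.344 and 0.338% with DNMT1i and 0.721, 0.694 and 0.939% with DMSO. It fell by 1.24 (log2, SE 0.20, edgeR adjusted p = 0.000202). A 27 bp exon of the receptor tyrosine phosphatase gene PTPRF held 0.0719, 0.0710 and 0.0963% against 0.315, 0.218 and 0.202%, a fall of 1.59 (log2, SE 0.36, edgeR adjusted p = 0.00384). Without DMSO replicate 1 it fell by 1.39 and was no longer called (edgeR adjusted p = 0.126). For AFDN, a junctional adaptor chosen after its values were seen because its mean was below 20 counts, the 21 bp exon held 0.143, 0.0852 and 0.137% against 0.814, 0.477 and 0.460%. None of the 4 exons overlapped between treated and control libraries, which the rule for naming bins required of USO1, PALLD and PTPRF.

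**Figure D2:**
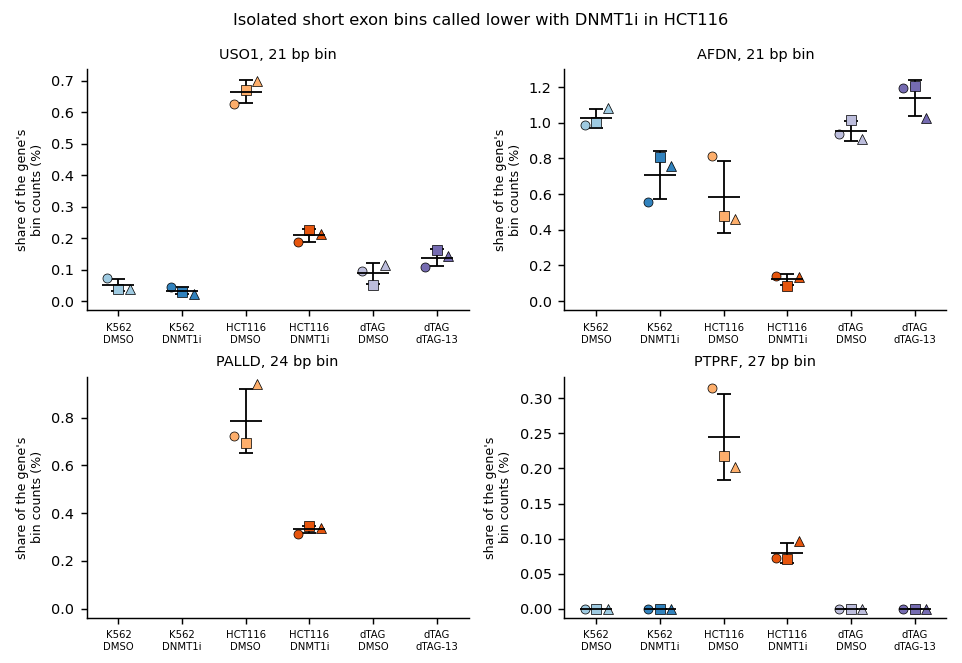
Share of the gene's bin counts in percent (vertical axis) for the microexons of USO1, AFDN, PALLD and PTPRF, by group (horizontal axis), with a point per library, a line at the mean and bars for the SD (n = 3); PALLD is drawn for HCT116 alone. The USO1 exon sits at 0.187 to 0.226% with DNMT1i and at 0.627 to 0.699% with DMSO in HCT116 cells.

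In wild-type K562 cells the same exons behaved differently from one another. The USO1 exon held 0.0242 to 0.0729% in the 6 libraries, below every HCT116 library. The PTPRF exon had no count in wild-type K562 cells, which allows a share of up to 0.117% under DMSO when 3 counts are taken as the floor. The PALLD exon had none either, but with 23 bin counts of the gene in the DMSO libraries a share of up to 13% is allowed, so that its use in K562 cells was not measurable at this depth. The AFDN exon held 0.554 to 1.20% over all K562 libraries. As genes, USO1 rose with DNMT1i in HCT116 cells (log2 0.33, SE 0.08, edgeR adjusted p = 0.0013), and PALLD (−0.28, SE 0.07, edgeR adjusted p = 0.0016) and PTPRF (−0.27, SE 0.08, edgeR adjusted p = 0.0055) fell. A complete exon of 24 bp in PICALM, a clathrin adaptor, touches 1 other bin and was also lower (log2 −0.87, edgeR adjusted p = 0.0002). In the other direction, a 20 bp acceptor-to-donor bin of INPP5F, an inositol phosphatase, was higher by 4.19 (log2) at a mean of 9.5 counts. The PICALM and INPP5F bins were chosen after their values were seen.

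In edgeR most higher calls lay at the ends of transcripts. Of 7090 tested stretches between ends, 200 were higher and 5 lower (2.89% called). Longer bins of the same kind were called about as often (3.02%, 380 higher and 68 lower of 14838). By place in the gene, 159 short bins of the last 25% of the exonic length were higher and 1 lower, of 5087, and in the first 25% 18 were higher and 41 lower, of 17482. AATAAA stood in the window of 103 of the 200 higher bins (51.5%) and of 1761 of the 7090 tested (24.8%), with its reverse complement in 8% and 2.58%. The 244 higher bins fell in 149 genes and 160 runs of touching bins, so that many calls repeat each other. The shares of 149 of the 244 bins did not overlap between the groups. The test had picked these bins from the same libraries, and the share without overlap over all bins was not counted, so this is a description. Of 45 short bins that DESeq2 called higher, 19 were end stretches and 18 starts. Against the 2 neighbouring bins 1 end stretch was called higher. Without DNMT1i replicate 1 or DMSO replicate 3, 38 and 39 end stretches were higher, and without DNMT1i replicate 2, 407.

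Individual end stretches show the pattern and its spread. A 4 bp bin of HMGB2, a chromatin protein of the high-mobility group, held 1.28, 0.332 and 0.698% of the gene's bin counts with DNMT1i and 0.152, 0.249 and 0.0526% with DMSO. It was higher by 2.25 (log2, SE 0.28, edgeR adjusted p = 9.47e-09). A 3 bp bin of the ribosomal protein gene RPL23A held 0.775, 0.293 and 0.534% against 0.149, 0.206 and 0.0736%, higher by 1.86 (SE 0.24). For AKT1, the survival kinase whose 19 bp bin is printed above, the shares were 1.89, 0.637 and 1.03% against 0.349, 0.601 and 0.0211%. In all 3 the groups did not overlap, as the rule for naming bins required. Treated replicate 2 was the lowest treated library in all 3, and DMSO replicate 3 the lowest control. The short 3′-most bins had the same lowest libraries, at 0.0977, 0.0678 and 0.0743% of bin counts with DNMT1i and 0.0784, 0.0726 and 0.0478% with DMSO, and their part in the result was not tested.

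Single-base bins at the ends behaved likewise. The 1 bp bin of PABPC4, a poly(A)-binding protein, held 0.689, 0.309 and 0.513% with DNMT1i and 0.152, 0.281 and 0.0918% with DMSO (log2 1.51, SE 0.23). The 1 bp bin of TRMT112, a methyltransferase partner, held 5.28, 2.75 and 4.05% against 2.03, 2.59 and 0.761%. Other end stretches named by the rule were a 3 bp bin of GNAS (log2 1.78, SE 0.36), a 2 bp bin of RPL38 (1.22, SE 0.18) and a 16 bp bin of WAC (1.73, SE 0.29) that consists of A alone. The call of GNAS was lost without DNMT1i replicate 1 (1.41), and that of AKT1 without DNMT1i replicate 1 (1.36) or DMSO replicate 3 (1.23). In DESeq2 the calls of HMGB2, AKT1, GNAS, WAC, RPL38 and TRMT112 were lost, and those of RPL23A and PABPC4 were made. Against their 2 neighbouring bins none of these end stretches was called, and AKT1 had a log2 of −0.01 there.

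**Figure D3:**
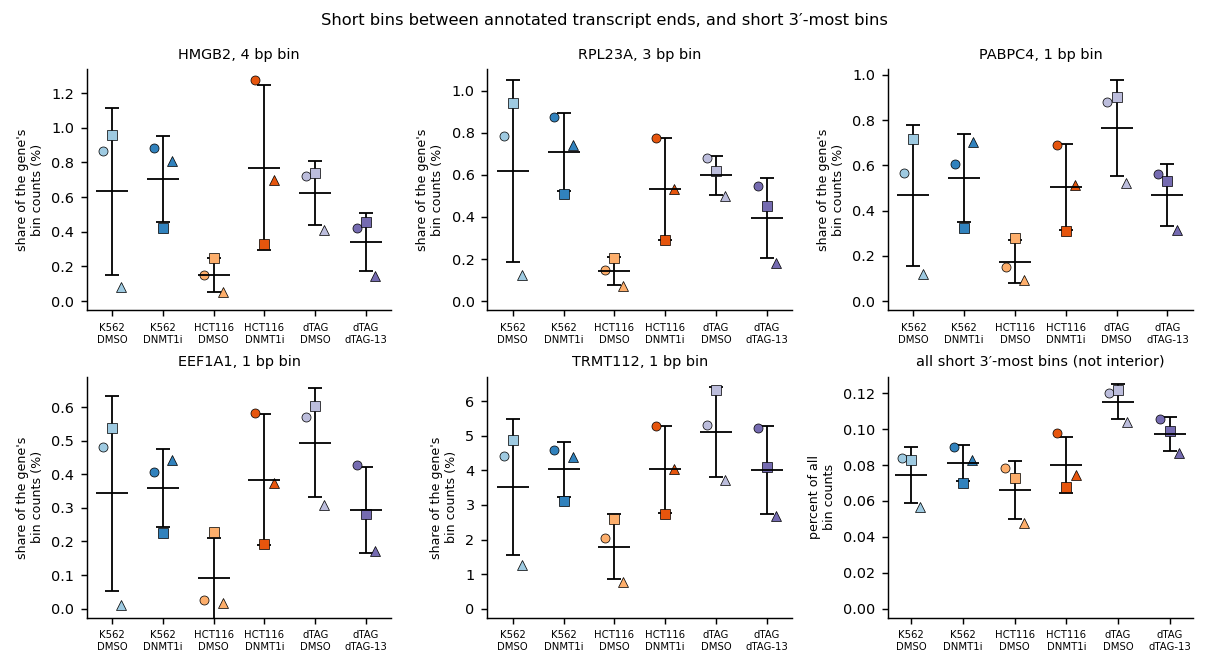
Share of the gene's bin counts in percent (vertical axis) for end stretches of HMGB2, RPL23A, PABPC4, EEF1A1 and TRMT112, and, in the last panel, the percent of all bin counts in the short 3′-most bins, by group, with a point per library, a line at the mean and bars for the SD (n = 3). In HCT116 cells the DMSO replicate 3 points are lowest in each panel, at 0.0526% for HMGB2 and 0.0478% for the 3′-most bins.

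In edgeR with all libraries, lower calls lay mostly on the start side. Of 9980 tested stretches between starts 34 were lower and 21 higher. DESeq2 called 18 lower and 18 higher, and the test against the 2 neighbours 1 lower and 2 higher. Without DMSO replicate 2, 22 starts were lower and 99 higher, and without any other 1 library more were lower than higher. The 64 lower bins of all kinds fell in 39 genes. None of the 64 overlapped between the groups, in the same libraries that the test used. The collagen-folding isomerase gene P4HB had 7 of them, the hyaluronan receptor gene CD44 6 and the tropomyosin gene TPM4 4. A 24 bp start-side bin of CAV1, the caveolar coat protein, held 0.512, 0.941 and 0.635% with DNMT1i and 1.84, 2.04 and 1.77% with DMSO. It fell by 1.40 (log2, SE 0.21), while the gene itself fell by 1.65 (SE 0.07) to 114 from 334 CPM. Against its 2 neighbours the CAV1 bin was at −0.07 and not called. The P4HB 7 bp bin fell by 1.55 (SE 0.28), with −0.00911 and no call against its neighbours, and the 11 bp bin of EIF4A3, an exon-junction helicase, by 1.57 (SE 0.38). The EIF4A3 call was lost without DNMT1i replicate 1 (−1.30), DMSO replicate 1 (−1.55) or DMSO replicate 2 (−1.42).

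Lower use was also measured at a splice donor. A 24 bp stretch between donors in the protocadherin gene PCDH7 held 0.286, 0.354 and 0.607% with DNMT1i and 1.14, 0.955 and 1.38% with DMSO, a fall of 1.48 (log2, SE 0.27, edgeR adjusted p = 0.000173). Against its 2 neighbouring bins, which share its reads, it was at −0.10 and not called. A 27 bp bin of the non-coding host gene MIR100HG held 0.828, 0.688 and 0.604% with DNMT1i and had no count with DMSO, which allows up to 0.0366%. With 123 counts against 0 its share was at least 19.2-fold higher, taking 3 counts over the DMSO group as the floor. The gene itself rose by 0.81 (log2).

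In wild-type K562 cells DNMT1i changed 15 short bins of 36586 tested, 13 higher and 2 lower. That is 0.041% of short bins, against 0.0492% of all bins. In the higher direction the share was 0.0355% against 0.0337%, and in the lower 0.00547% against 0.0155%. Stretches between starts held 11 of the 13 higher calls, of 10271 tested, where the median over all tested starts was also above 0 (log2 0.14). None of 311 isolated short bins was called in edgeR (8 at an unadjusted p below 0.05) nor by DESeq2 (4 at an unadjusted p below 0.05).

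The 4 higher bins with a mean of at least 20 counts were all start stretches. The 2 bp bin of TRAP1, the mitochondrial HSP90 paralog, held 0.540, 0.581 and 0.442% with DNMT1i and 0.311, 0.152 and 0.0684% with DMSO (log2 1.54, SE 0.29, edgeR adjusted p = 0.00101). The 24 bp bin of GTF3A, the transcription factor for 5S RNA, held 0.553, 0.731 and 0.313% against 0.235, 0.224 and 0.0756% (log2 1.51, SE 0.27, edgeR adjusted p = 0.00265). The 26 bp bin of GYPC, a red-cell membrane glycoprotein, held 2.65, 3.17 and 2.79% against 1.87, 1.50 and 0.370% (log2 1.29, SE 0.27, edgeR adjusted p = 0.0253). In all 3 the lowest control was replicate 3, the library that stood apart. Without it GTF3A was at 1.16 and no longer called (edgeR adjusted p = 0.239), TRAP1 and GYPC were called, and the number of called short bins was 25 in place of 15. TRAP1 lost its call without DNMT1i replicate 1 (1.52) or 2 (1.45) or DMSO replicate 2 (1.46), GTF3A also without DNMT1i replicate 1 (1.47) or 2 (1.21), and GYPC without any 1 of the DNMT1i libraries (1.21 to 1.35) or DMSO replicate 2 (1.46). DESeq2 called none of the 3 (DESeq2 adjusted p = 0.207, 0.961 and 1 for TRAP1, GTF3A and GYPC).

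Some start bins had no count in the K562 controls. A 4 bp bin of TECR, a fatty-acid reductase, had 28, 30 and 26 counts with DNMT1i and 0 in all 3 controls. In HCT116 cells the same bin had 34, 38 and 32 counts against 0, 1 and 0. It was the 1 bin of the 13 that was also called higher in HCT116 cells. The mean was below 20 counts in both lines, so TECR was chosen after its values were seen, as was the 9 bp bin of the amino acid transporter gene SLC7A8 with 11, 22 and 12 counts against 0. At this depth 0 counts over the controls allow a share of up to 0.0108% for TECR and 0.0529% for SLC7A8. Both are described by these counts alone.

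FADS2, a fatty-acid desaturase gene, carried both lower bins. Its 23 bp bin, from a start site to a donor, held 0.222, 0.208 and 0.182% with DNMT1i and 1.81, 1.86 and 1.92% with DMSO, a fall of 3.20 (log2, SE 0.25, edgeR adjusted p = 1.32e-19). The counts of the bin were 23, 20 and 17 against 32, 24 and 27. The gene rose by 2.62 (log2, SE 0.11), from 34.6 to 218 CPM, while the counts of the bin were lower in all 3 treated libraries. Against its 2 neighbours, which include the first bases of the same start, the bin was not called.

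The responses of the 2 lines to DNMT1i were compared directly as HCT116 minus K562. Of 43188 short bins tested, 12 were higher and 17 lower, or 0.0671% of short bins against 0.0645% of all bins. Higher calls were 0.0278% against 0.0374%, and lower calls 0.0394% against 0.0271%. Among isolated short bins none of 426 was called in edgeR (17 at an unadjusted p below 0.05). DESeq2 was not run on this difference. Stretches between ends gave 10 of the higher calls and no lower one (8480 tested), and stretches between starts 14 of the lower calls and no higher one (11908 tested). Without K562 DMSO replicate 3 the 29 calls became 156.

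TPM4, which encodes a cytoskeletal tropomyosin, changed in opposite directions in the 2 lines. Its 18 bp bin between starts, in coding sequence, held 0.117, 0.0920 and 0.0795% with DNMT1i and 0.00978, 0 and 0.0149% with DMSO in K562 cells. In HCT116 cells it held 0.643, 0.883 and 0.778% with DNMT1i and 1.57, 1.62 and 1.51% with DMSO. The bin was thus higher with DNMT1i in K562 libraries, higher still in all HCT116 libraries, and lower with DNMT1i within HCT116. The difference in response was −4.52 (log2, edgeR adjusted p = 3.19e-07), and bins of 26, 6 and 4 bp of the same gene gave −4.70, −4.93 and −4.32. The control counts in K562 were 2, 0 and 2, so the size of the log2 value depends on very few reads.

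HMGN1, a nucleosome-binding protein gene, also differed in its response. Its 13 bp start bin held 1.53, 2.21 and 1.56% against 1.13, 0.704 and 0.580% in K562 cells, and 0.530, 1.44 and 1.67% against 2.02, 3.05 and 2.06% in HCT116 cells. Within HCT116 the bin was called lower (log2 −0.94, edgeR adjusted p = 0.0426), and within K562 the value of 1.1 did not pass (edgeR adjusted p = 0.613). The difference in response was −2.04 (log2, edgeR adjusted p = 0.00443). It was no longer called without HCT116 DNMT1i replicate 1 (−1.72), HCT116 DMSO replicate 2 (−1.79) or K562 DNMT1i replicate 2 (−1.85). A 12 bp bin of PRAME, a tumor antigen gene, had 1 count in the 3 HCT116 controls and 0.394, 0.655 and 0.641% of the gene's bin counts with DNMT1i. In K562 cells that bin held 0.639, 0.743 and 0.721% with DNMT1i and 0.888, 0.867 and 1.02% with DMSO.

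**Figure D4:**
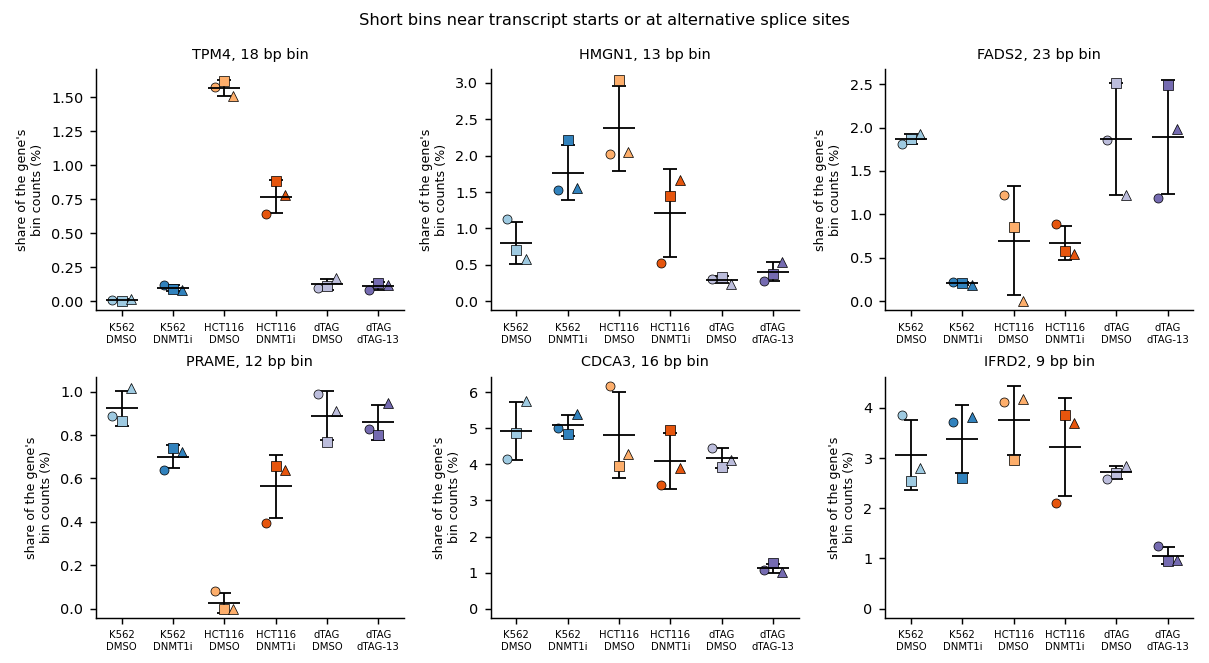
Share of the gene's bin counts in percent (vertical axis) for start-side bins of TPM4, HMGN1, FADS2 and PRAME and for CDCA3 and IFRD2 bins, by group, with a point per library, a line at the mean and bars for the SD (n = 3). The CDCA3 bin is at 1.03 to 1.27% with dTAG-13 and between 3.43 and 6.17% in every other library.

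Loss of SON and SRRM2 by dTAG-13 for 6 hr changed 22 short bins of 36098 tested, 8 higher and 14 lower. Leaving out 1 library moved the number to between 5 (without DMSO replicate 1) and 63 (without DMSO replicate 3). The share called was 0.0609%, against 0.131% of all bins. Higher calls were 0.0222% of short bins against 0.095% of all bins, and lower calls 0.0388% against 0.0358%. Longer interior bins were called at 0.151%. None of 309 isolated short bins was called in edgeR (11 at an unadjusted p below 0.05) nor by DESeq2 (5 at an unadjusted p below 0.05).

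The clearest lower bin was the 16 bp stretch between acceptors in CDCA3, a cell-cycle gene. It held 1.08, 1.27 and 1.03% of the gene's bin counts with dTAG-13 and 4.46, 3.92 and 4.13% with DMSO. Every wild-type library held 3.43 to 6.17%. Counts were 13, 16 and 14 against 72, 58 and 60, and use fell by 1.88 (log2, SE 0.26, edgeR adjusted p = 5.38e-07), while the gene fell by 0.46 (SE 0.08). The bin was called without any 1 library. Against its 2 neighbours, which share its reads, it was not.

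A 9 bp start-to-donor bin of IFRD2, an interferon-related gene, held 1.25, 0.950 and 0.963% with dTAG-13 and 2.59, 2.7 and 2.85% with DMSO (log2 −1.34, SE 0.23, edgeR adjusted p = 0.00371). Without dTAG-13 replicate 2 it fell by 1.28 and was no longer called (edgeR adjusted p = 0.0876). In the same gene a 1 bp bin, chosen after its values were seen since its mean was 15 counts, was higher, with 21, 36 and 27 counts against 0, 3 and 3. The 2 IFRD2 bins therefore moved in opposite directions within 1 gene.

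The other 7 higher bins also had means below 20 counts and were chosen after their values were seen. In FBXW5, an F-box protein gene, 2 adjacent 30 bp stretches between acceptors had log2 values of 2.25 and 2.14, and the coding one held 2.51, 4.27 and 3.32% with dTAG-13 against 0.750, 0.726 and 0.660%. A 23 bp start stretch of the complement regulator gene CD55 (1.53), a 10 bp bin of the splicing repressor gene PTBP1 (1.71), a 19 bp bin of the heme enzyme gene UROD (2.41), an 8 bp bin of HGH1 (1.90) and a 1 bp bin of the nucleoside transporter gene SLC29A2 (1.67) were higher as well. None of the 8 overlapped between treated and control libraries, the same libraries that the test used.

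Of the 14 lower bins, 10 were stretches between transcript ends, of 7211 tested and with none higher. The median over all tested end stretches was −0.11 (log2). DESeq2 and the test against the 2 neighbours each called 0 end stretches lower. Without dTAG-13 replicate 3 or DMSO replicate 1 or 2 the number in edgeR was 0, and without dTAG-13 replicate 2 it was 1. Without dTAG-13 replicate 1 it was 25, and without DMSO replicate 3 it was 36. The 3 bp bin of RPL26L1, a ribosomal protein paralog, held 1.1, 0.870 and 0.623% with dTAG-13 and 1.70, 2.38 and 1.45% with DMSO (log2 −1.1, SE 0.25, edgeR adjusted p = 0.0277). That call was lost in DESeq2 and with no filter on low counts, and also without dTAG-13 replicate 2 or 3 or DMSO replicate 1 or 2, where the fall was between 0.88 and 1.14 (edgeR adjusted p 0.179 to 0.825). The adjoining 2 bp bin of RPL26L1, chosen after its values were seen, did not overlap between the groups either, and the other 8 end bins did. Of those, also chosen after their values were seen, the 1 bp bin of EEF1A1, the translation elongation factor, held 0.427, 0.282 and 0.172% against 0.570, 0.605 and 0.309%, and the 8 bp bin of PABPC4 printed above held 0.415, 0.400 and 0.243% against 0.714, 0.679 and 0.372%. The short 3′-most bins moved alongside, at 0.106, 0.0990 and 0.0869% of bin counts against 0.120, 0.122 and 0.104%, and their part in the result was not tested.

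The short bins that were higher with DNMT1i in HCT116 cells, of which 200 of 244 were end stretches, can be looked up in the dTAG-13 experiment, which shares no library with that comparison. Of the 244 short bins higher there, 219 were tested with dTAG-13, 209 of those had a negative log2 value, and 8 were called lower. Over all 7211 end stretches tested with dTAG-13, 67.7% were negative and 0.139% were called lower, and over all short bins 45.2% and 0.0388%. The 8 bins are 3.28% of the first list and 57.1% of the 14 lower bins. In K562 cells with DNMT1i, 224 of the 244 were tested, 196 had a positive log2 value and 1 was called. K562 DMSO replicate 3, the library that stood apart, is among the controls there. It held 0.0567% of bin counts in short 3′-most bins, and the other K562 DMSO libraries held 0.0840 and 0.0828%. The signs were not counted without that library, so its part in the 196 was not tested. Of all end stretches 51.1% were positive there, and of all short bins 57.0%. Since many of these bins touch one another, the counts are not of separate events. The library values above show that short 3′-most bins also varied between replicates.

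Between the untreated lines, the use of 744 short bins of 37819 differed, 413 higher in HCT116 and 331 lower. That is 1.97% of short bins, against 2.6% of all bins and 2.56% of longer interior bins. Higher calls were 1.09% against 1.19%, and lower calls 0.875% against 1.41%. This comparison shares its HCT116 DMSO libraries with the DNMT1i comparison above. With all libraries fitted, starts were called most often (239 higher and 128 lower of 10125, or 3.62%). Ends gave 40 higher and 95 lower of 7166. Without K562 DMSO replicate 3 the number of calls was 1907. Starts then gave 480 higher and 215 lower, and ends 62 higher and 606 lower. Both the number of calls and their spread over the kinds thus depend on that library.

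Isolated short bins, which share no reads with a touching bin, differed in 17 of 353 cases, 9 higher and 8 lower in HCT116 cells. By unadjusted p below 0.05, 45 passed, and DESeq2 called 8 higher and 7 lower. The USO1 exon held 0.627, 0.670 and 0.699% in HCT116 and 0.0729, 0.0388 and 0.0399% in K562 cells under DMSO, a log2 difference of 3.62 (SE 0.32, edgeR adjusted p = 7.01e-18). The 25 bp exon of CD47, the macrophage checkpoint receptor, held 2.68, 2.03 and 2.95% against 0.224, 0.222 and 0.291% (log2 3.37, SE 0.35, edgeR adjusted p = 8.47e-13).

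A 9 bp exon of PSAP, the saposin precursor, adds 3 codons. It held 0.888, 0.748 and 0.752% in HCT116 and 0.189, 0.216 and 0.279% in K562 cells (log2 1.81, SE 0.20, edgeR adjusted p = 1.18e-12). Against its neighbours it stood at 27.3, 23.3 and 24.4% in HCT116 and at 5.68, 6.27 and 7.60% in K562 cells. The 27 bp exon of DIAPH1, a formin that nucleates actin, held 0.707, 0.485 and 0.518% against 0.241, 0.271 and 0.277% (log2 1.12, SE 0.17).

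Other exons were used more in K562 cells. An 18 bp exon of ANXA6, a membrane-binding annexin, held 0.800, 0.668 and 0.717% in HCT116 and 2.67, 2.09 and 2.07% in K562 cells (log2 −1.63, SE 0.28, edgeR adjusted p = 2.03e-06). It stood at 13.9, 12.8 and 15.3% of its neighbours in HCT116 cells and at 52.6, 43.8 and 38.6% in K562 cells. The 15 bp exon of ABI1, an adaptor of the actin-regulating WAVE complex chosen after its values were seen, held 0.116, 0 and 0.0440% against 0.878, 0.716 and 1.35%. Smaller differences were measured for a 9 bp exon of MTSS2 (log2 −1.59, SE 0.38), a 15 bp exon of the GTPase-activating protein gene ARHGAP12 (−1.34, SE 0.33), a 19 bp exon of the annealing helicase gene ZRANB3 (−1.33, SE 0.32) and, chosen after its values were seen, a 27 bp exon of the thioesterase gene ACOT9 (−0.84, SE 0.20). The MTSS2 call was lost in DESeq2 and without HCT116 DMSO replicate 2 (−1.21) or 3 (−1.48). The calls of ARHGAP12 (−1.38 to −1.22) and ZRANB3 (−1.27 to −1.21) were lost without HCT116 DMSO replicate 1 or without K562 DMSO replicate 1 or 2.

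The remaining isolated calls had means below 20 counts and are named after their values were seen. Higher in HCT116 cells were an 18 bp exon of the microtubule-actin crosslinker gene MACF1 (log2 2.56), an 18 bp exon of the formin gene FMNL1 (2.52), a 24 bp exon of the kinase gene TNIK (2.17), a 9 bp exon of the clathrin adaptor gene AP1G1 (1.84) and a 24 bp exon of CLASP1 (1.69), which encodes a microtubule-end protein. Lower were an 18 bp exon of AIG1 (−3.59) and a 27 bp exon of BAZ2B (−3.45), a bromodomain gene.

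**Figure D5:**
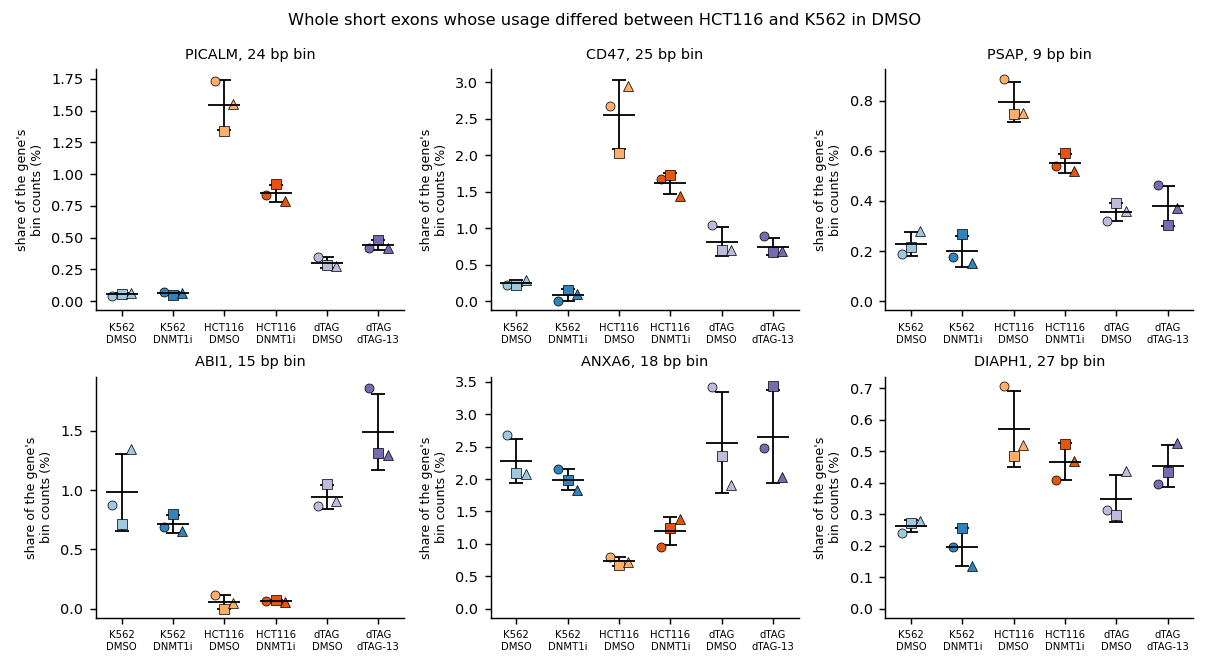
Share of the gene's bin counts in percent (vertical axis) for 6 short coding exons, in PICALM, CD47, PSAP, ABI1, ANXA6 and DIAPH1, by group, with a point per library, a line at the mean and bars for the SD (n = 3). PICALM, CD47, PSAP and DIAPH1 are higher in HCT116 than in wild-type K562 cells under DMSO, PICALM at 1.34 to 1.73% against 0.0441 to 0.0635%, and ANXA6 and ABI1 are lower.

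Among bins that touch others, the 24 bp PICALM exon held 1.73, 1.34 and 1.55% in HCT116 and 0.0441, 0.0536 and 0.0635% in K562 cells (log2 4.86, SE 0.26, edgeR adjusted p = 5.64e-43). A 20 bp bin of RPL22L1, a ribosomal protein paralog, held 0.0618, 0.0723 and 0.0638% against 2.53, 3.69 and 2.19% (log2 −5.44, SE 0.69). Both kept their calls against their 2 neighbours. Both also kept them without any 1 library.

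Bins at 0 in 1 line are given as bounds, with 3 counts over the group as the floor. A 16 bp bin of SET, a histone chaperone gene, held 289 counts in the HCT116 controls and 0 in the K562 controls, at least 129-fold higher as a share of the gene. Likewise the 23 bp bin of CAST, the calpain inhibitor, was at least 44.9-fold higher (185 counts against 0) and the 27 bp bin of CD44 at least 12.8-fold (1749 against 0). In the opposite direction the 17 bp bin of GMDS, a sugar dehydratase, was at least 26.1-fold lower (0 against 193 counts) and the 24 bp bin of SMYD3, a lysine methyltransferase, at least 16.4-fold lower (0 against 296). Against their 2 neighbouring bins SET, CAST, CD44, GMDS and SMYD3 all lost their calls, and GMDS changed sign (log2 2.31).

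With 1 or 2 counts the ratio is given with its exact 95% counting interval. For the 6 bp bin of TPM4 it was 305 (84.0 to 2523; 609 counts in HCT116 against 2). For the 18 bp bin of VAV1, a hematopoietic exchange factor, the K562 share was 85.1 times that in HCT116 cells (15 to 3389; 123 counts against 1). For the 12 bp bin of PRAME it was 37.2 times (6.67 to 1471; 1387 against 1). These intervals cover counting error only. Against their 2 neighbouring bins, as HCT116 minus K562, the TPM4 bin (log2 −0.47) and the VAV1 bin (0.73) changed sign, and the PRAME bin kept its call. A 30 bp bin of the non-coding RNA UCA1 held 1.65, 1.29 and 1.55% in HCT116 and 0.0214, 0.114 and 0% in K562 cells.

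The smallest bins were called between the lines as well. The 1 bp bins of the small nucleolar RNA host gene SNHG1 (log2 3.31) and of RPS2 (3.00), a ribosomal protein gene, were higher in HCT116 cells. The 2 bp bin of HSP90B1 (−3.38), the chaperone of the endoplasmic reticulum, and the 3 bp bin of RPL37A (−2.72), another ribosomal protein gene, were lower. Of these SNHG1 alone kept its call against its neighbours, where RPS2 stood at −0.02.

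Short bins of genes known for microexons were examined as a list of 76 genes, of which 75 held 1310 short bins and 82 of those were isolated. With DNMT1i in K562 cells edgeR called 0 of 512 tested (17 at an unadjusted p below 0.05), and with dTAG-13 0 of 439 (15 at an unadjusted p below 0.05). DESeq2 also called 0 in both, with 4 and 11 at an unadjusted p below 0.05. In HCT116 cells 3 of 558 were called (0.538%), the lower PTPRF exon above, a 21 bp PTPRF bin (log2 0.79) and a 9 bp bin of RNPS1, an exon-junction protein gene (1.11). Between the lines 7 of 554 were called (1.26%), in ABI1, AP2M1, CLASP1, GIT2, MACF1 and TNIK. These shares stood below those of all bins (0.86% and 2.6%). DESeq2 called 1 and 4. Of the isolated bins of the list, 1 of 12 was called in HCT116 cells and 4 of 11 between the lines. The list was drawn up with earlier results known, and its counts are a description.

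A further 7 genes were followed whatever their values, WT1, SRC, CTNND1, MEF2A, MEF2D, AP2M1 and EIF4G1, and none of their short bins was called in edgeR with DNMT1i or dTAG-13. Of the bins tested, 1 of 52 with DNMT1i in K562, 0 of 49 in HCT116 and 4 of 48 with dTAG-13 had an unadjusted p below 0.05, and DESeq2 called none either (0, 0 and 5 at that level). The 9 bp KTS stretch of WT1, a zinc-finger factor, held 1.36, 1.16 and 1.23% with DNMT1i and 0.980, 0.704 and 1.16% with DMSO in K562 cells, and 1.1, 0.930 and 1.17% with dTAG-13 against 1, 0.747 and 1.19%. The log2 values were 0.42 and 0.12, and neither passed the test. The 6 bp exon of AP2M1, a clathrin adaptor subunit, held 1.54 to 1.82% in wild-type K562, 1.35 to 1.64% in HCT116 and 0.766 to 1.01% in dTAG K562 libraries. The 7 bp AP2M1 bin was the exception between the lines, with 0.0701, 0.0758 and 0.0954% in HCT116 and 0.916, 0.878 and 0.830% in K562 cells (log2 −3.41, edgeR adjusted p = 5.12e-18).

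Known regulators of short exons were read from the gene counts, as a list of 36 genes. SRRM4, the neuronal microexon factor, reached at most 0.06 CPM in any library. With DNMT1i in HCT116 cells 7 rose and 14 fell of 31 tested, where 61.6% of all genes were called. The epithelial splicing factor ESRP1 fell by 1.23 (log2) from 371 to 170 CPM, MBNL1 by 0.60 and SRRM3, an SRRM4 relative, by 0.51, and QKI rose by 0.85. In K562 cells with DNMT1i 1 of 26 was called (8.84% of all genes), ESRP2, at 5.70 CPM with DNMT1i and 0.119 with DMSO. With dTAG-13, 1 rose and 4 fell of 27 (4.67% of all genes called). SRRM2 rose by 0.41 (SE 0.07), and PTBP1, TRA2A, SRRM1 and SRSF11 fell by 0.48, 0.33, 0.33 and 0.29. Between the lines, where 79.3% of all genes were called, 12 were higher and 15 lower of 31, among them ESRP1 (log2 9.61), RBFOX2 (2.26) and SRRM3 (6.49 against 0.0319 CPM) higher and QKI (−2.76) lower in HCT116 cells.

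The genes that carry the called bins were compared at the gene level. Of the 149 genes with a higher short bin in HCT116 cells with DNMT1i, 38 rose and 63 fell, and of the 39 with a lower bin 16 rose and 11 fell. Of all genes tested there, 61.6% were called. In K562 cells 2 of 9 genes with a higher bin rose and none fell, where 8.84% of all genes were called. With dTAG-13, 1 of 8 genes with a lower bin and 2 of 7 with a higher bin fell, and none rose (4.67% of all genes called). A change in the use of a short bin thus went with either direction of the gene or with no called change.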

How the data were processed

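Poly(A) RNA libraries with unique molecular identifiers (CORALL) were made from triplicate separate cultures. Per the labels and methods, the authors processed reads with UMI-tools 1.1.1 and cutadapt 2.7, aligned them to hg38 with STAR 2.6.0 and counted them with HTSeq over Ensembl 104, flattened into exon bins. The strand setting was not given in the sources used here. The deposited values used are raw counts of reads per gene and per exon bin. They were deduplicated counts of molecules only as far as the authors' collapsing reached. Rows that name no gene held 18.7 to 23.6% of gene totals and 3.32 to 4.41% of bin totals and were left out. Another 18 per-sample columns were not used, nor were the HT-CTCF libraries. Deposited tables of the authors' own comparisons, with log2 fold changes and p-values, were not used.

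Groups were taken from the sample labels. The members and gene lists were chosen with earlier results of these data known. A bin's share is its percentage of the gene's bin counts. Bin use was tested with edgeR 4.0.16 (glmQLFit and diffSpliceDGE, TMM scaling, filterByExpr, genes with at least 2 bins left, R 4.3.3), with Benjamini-Hochberg adjustment over all bins. Gene counts were tested with glmQLFTest, and library shares with exact two-sided permutation tests (scipy 1.17.1). Every adjusted p comes from edgeR unless DESeq2 is named. Alternatives were RLE scaling, no filter on low counts, a mean of at least 20 counts, the replicate number as a block, DESeq2 1.42.0, each bin against its 2 neighbours, and each library left out in turn. Where a group was left with 2 libraries, the spread was pooled over all libraries fitted. On simulated counts for HCT116 DNMT1i (1500 genes, 29383 bins), 100% of 4-fold, 100% of 0.25-fold, 82% of 2-fold and 64% of 0.5-fold changes were recovered, and 9 of 23322 bins in unchanged genes were called. Those counts were drawn independently for each bin with a single fixed spread. The changed bins were interior bins of any length with a mean of at least 20 counts. Real bins that touch share reads and many short bins have fewer counts, so these rates do not carry over to them.

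Unless said otherwise, bins named in the text were called, had a mean of at least 20 counts and did not overlap between groups. They were those of largest change in each direction in up to 6 genes, the isolated bins of smallest p in up to 8 genes and the bins of 1 to 3 bp of smallest p in up to 4 genes. To these were added the 8 bins of smallest p for the difference between lines, the 5 bins and 5 isolated bins with most counts, and 7 genes followed throughout. A bin that the rule names is not reported here. Bins outside this rule are said to be chosen after their values were seen. In a mixed sequencing library fewer transcripts of an isoform and less of a transcript per cell cannot be told apart. Intervals and floors cover counting error only.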

Additional observations from a re-analysis of the deposited data

Results flagged for a closer look

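For 8 short bins the response to DNMT1i differed between HCT116 and K562 cells by a test of the difference itself, the interaction of line and treatment in edgeR with adjustment over all 224860 bins. In TPM4 the difference, HCT116 minus K562, was −4.52 for the 18 bp bin, −4.70 for the 26 bp bin, −4.93 for the 6 bp bin and −4.32 for the 4 bp bin (log2). These 4 bins belong to 1 gene and are not separate observations. In all 4 the K562 controls had at most 2 counts per library, and the log2 values of K562 rest on those. In HMGN1 the difference was −2.04 for the 13 bp bin and −2.12 for the adjoining 1 bp bin, which share most of their reads. The 12 bp PRAME bin gave 4.51, with 1 count in the 3 HCT116 controls. The 4 bp end stretch of HMGB2 gave 2.05. Its K562 shares were 0.886, 0.419 and 0.807% with DNMT1i and 0.867, 0.956 and 0.0793% with DMSO, so that the value in K562 DMSO replicate 3 was about as low as those of the HCT116 controls. The HMGB2 difference was not called without HCT116 DNMT1i replicate 1 (1.50), HCT116 DMSO replicate 1 (2.04) or 3 (1.68), K562 DNMT1i replicate 2 (1.80), or K562 DMSO replicate 1 (1.71) or 2 (1.68). The 1 bp HMGN1 bin lost its call without HCT116 DNMT1i replicate 1 (−1.79) or HCT116 DMSO replicate 2 (−1.82). No cause was tested.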

How the results depend on the processing

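Scaling by RLE left all 55 named values called in their direction. The same held for a minimum mean of 20 counts. The number of called short bins moved more. For K562 DNMT1i the 15 calls became 38 with no filter on low counts, 5 with a mean of at least 20 counts, 8 with DESeq2 and 0 against the 2 neighbouring bins. For HCT116 DNMT1i the 308 became 79 with DESeq2 and 10 against the neighbours. For dTAG-13 the 22 became 9 with a mean of at least 20 counts, 6 with DESeq2 and 3 against the neighbours. Between the lines the 744 became 1389 with no filter, 449 with a mean of at least 20 counts and 155 against the neighbours. For the difference between responses the 29 became 75 with no filter and 15 with a mean of at least 20 counts. Against the neighbours, which share reads with a touching bin, 5 of 47 named values changed sign, AKT1 (−0.00838), the 6 bp TPM4 bin between the lines (−0.47), GMDS (2.31), VAV1 (0.73) and RPS2 (−0.0167), all with an edgeR adjusted p of 1, 31 lost their call and 11 kept it. DESeq2 kept 36 of 47.

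Leaving out 1 library at a time gave 7 to 25 calls for K562 DNMT1i (fewest without DNMT1i replicate 2, most without DMSO replicate 3) and 84 to 575 for HCT116 DNMT1i. There, 84 were called without DNMT1i replicate 1, 153 without DNMT1i replicate 3, 172 without DMSO replicate 1 and 114 without DMSO replicate 3, and the number was 575 without DNMT1i replicate 2 and 530 without DMSO replicate 2. For dTAG-13 the range was 5 (without DMSO replicate 1) to 63 (without DMSO replicate 3), with 38 without dTAG-13 replicate 1 and 6, 7 or 9 otherwise. Between the lines it was 477 (without K562 DMSO replicate 2) to 1907 (without K562 DMSO replicate 3), and for the difference between responses 9 (without HCT116 DNMT1i replicate 1 or K562 DNMT1i replicate 2) to 156 (without K562 DMSO replicate 3). The difference in the share of short bins per library was −1.46 to −1.06 percentage points for HCT116 DNMT1i, 0.240 to 0.599 for K562 DNMT1i and −0.240 to 0.294 for dTAG-13. Of 378 named values with 1 library left out 337 kept their call, 41 lost it and none changed sign. The cause was not tested.

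Equal replicate numbers were not taken as pairs, since in no comparison did all 3 same-numbered pairs correlate above 0.1, although 2 of 3 did for dTAG-13. Deviations of same-numbered libraries correlated at 0.194, −0.384 and −0.244 for K562 DNMT1i, at 0.252, −0.0622 and 0.0102 for HCT116 DNMT1i, at 0.0471, 0.513 and 0.704 for dTAG-13 and at −0.0179, 0.0963 and 0.180 between the lines. With the replicate number as a block the calls were 10, 246, 209 and 1039, and 21 for the difference between responses, and 53 of 55 named values kept their call, and GYPC (1.36) and the HMGB2 difference (1.84) lost it. Leaving out merged gene groups changed nothing, since 0 bins belonged to one. At these depths isolated bins were limited most, as 309 to 426 of 3565 could be tested in any 1 comparison.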
